A study of Drosophila melanogaster with 16 samples.

Results

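Gene expression in the antennae and in the brain of fed female Drosophila melanogaster was compared on one-colour Agilent arrays. The comparison used the 8 arrays labelled fed, 4 of antennae and 4 of brain, out of the 16 arrays of the series; the other arrays were labelled as starved for 28 h and entered only a repeat of the comparison. RNA was extracted 4 times, each time from 100 antennae and 50 brains of 50 flies, so that each array measured a pool of flies. The labels gave an age of 5 to 7 days and 0 h of starvation for both tissues. The methods described females collected at 4 days of age, of which the fed ones were then kept with sucrose, and named CantonS among the fly lines without stating the line of the arrays. The replicate number was also the slide, and each tissue lay at a fixed place on every slide, so that place and tissue cannot be told apart.

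The antenna is the main nose of the fly. Its olfactory neurons carry odorant receptors of the Or family, which work together with the co-receptor Orco, or ionotropic receptors of the Ir family, which work with Ir8a, Ir25a or Ir76b. Support cells around them secrete odorant-binding proteins into the sensillum lymph, and the second antennal segment holds Johnston's organ, a hearing organ of ciliated mechanosensory neurons. The axons of these neurons end in the brain, whereas their cell bodies lie in the antenna. The brain holds the interneurons, the peptide- and amine-releasing neurons and the glia that receive and modulate this input.

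Each spot gives the brightness of cyanine 3-labelled copies of the RNA bound to a DNA probe. Levels are given as the log2 of the background-subtracted signal relative to the 75th percentile of the same array, so that a step of 1 is a factor of 2. A difference, given ± SE, is the mean of the antennal arrays minus the mean of the brain arrays on this scale. Levels of different genes come from different probes and were not set against each other. A gene was tested where the scanner software had marked a probe of it as well above background on every array of either tissue, and was read by the brightest such probe. In whole tissue, fewer cells of a type and less RNA per cell cannot be told apart.

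Expression differed widely between the tissues. Of 16404 genes and transcripts tested with limma at a Benjamini-Hochberg adjusted p under 0.05, 5453 were higher in antennae (33.2%) and 6794 were lower in antennae, that is higher in brain (41.4%). The median difference was 1.04 among the higher genes and -1.11 among the lower ones, and -0.13 over all genes tested. At least 4-fold differences were called in 1516 genes that were higher (9.24%) and 1683 that were lower (10.3%), and differences of at least 16-fold in 548 and 447 genes. Which direction had more of the 4-fold genes depended on the processing. With another background correction (normexp) 840 were higher and 650 lower. The arrays of the tissues did not overlap in 11423 genes (69.6%). A difference below 2-fold was nevertheless the most frequent outcome, with 9760 genes (59.5%), and 14062 genes (85.7%) were well above background on every one of the 8 arrays. Only 327 genes were well above background on all antennal arrays and on no brain array, and 727 showed the opposite.

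The contrast was repeated on the 8 arrays labelled starved, which are separate extracts. Of the genes at least 4-fold higher in fed antennae, 1482 of 1516 (97.8%) were called higher there too and none was called lower. Of those at least 4-fold lower, 1586 of 1683 (94.2%) were called lower and 6 were called higher. Replicate arrays correlated at 0.985 to 0.995 in antennae and 0.978 to 0.991 in brain over probes, against 0.795 to 0.845 between the tissues. The antennal arrays had 69.1 ± 1.29% of spots well above background and the brain arrays 72.2 ± 1.17% (SD, n = 4 each, two-sided exact permutation test, p = 0.0286, the smallest this design can give). Their 75th percentile signals were 773 ± 175 and 809 ± 84.8 in antennae and brain (exact permutation p = 0.743).

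**Figure D1:**
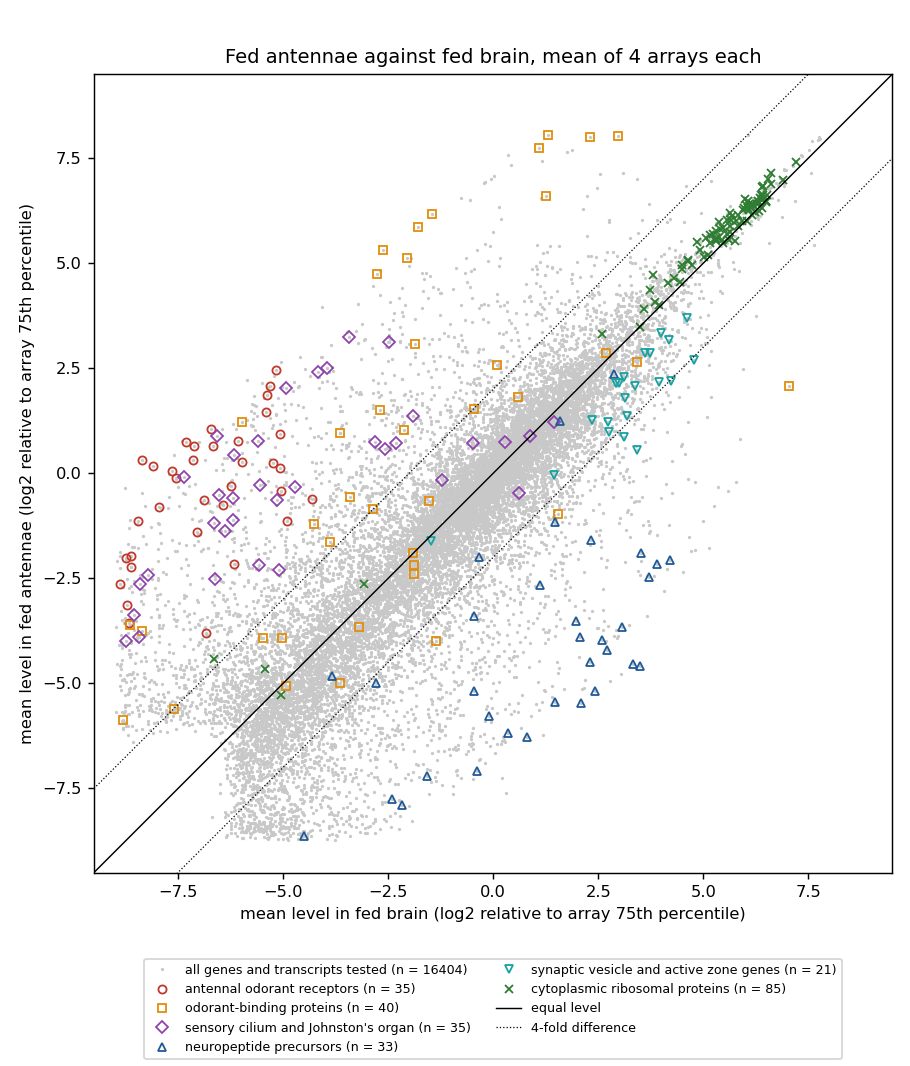
Mean level of each gene in fed antennae (vertical axis) against fed brain (horizontal axis), both as log2 relative to the 75th percentile of the array and as means of 4 arrays; coloured symbols mark 6 gene lists and dotted lines a 4-fold difference. Antennal odorant receptors, most odorant-binding proteins and most cilium genes lie above the upper dotted line, 29 of 33 neuropeptide precursors lie below the lower one, and cytoplasmic ribosomal protein genes follow the line of equal level.

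The labelled tissues were checked against their defining genes. Orco, the co-receptor of the Or family, was at 3.87, 4.0, 4.17 and 4.06 on the antennal arrays, against -2.94, -3.23, -3.56 and -3.18 on the brain arrays. Pdf, the peptide of the clock neurons, was at -2.26, -3.63, -2.64 and -6.14 on the antennal arrays, against 2.94, 2.98, 3.12 and 3.27 on the brain arrays. Both genes separated the tissues without overlap, with differences of 7.25 ± 0.14 and -6.74 ± 0.76 (SE), and the labels fit their markers on every array. The brain arrays of Pdf covered a range of 0.33 and the antennal arrays one of 3.88, and the 4th antennal array was the lowest. A second, dim probe of Pdf differed by -0.89 ± 0.28 with overlapping arrays (adjusted p = 0.0196).

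A similar spread was seen in other brain genes. Among the 29 neuropeptide precursors that were at least 4-fold lower in antennae, the median antennal level was 3.44, 2.03, 1.69 and 0.669% of the mean brain level on antennal arrays 1 to 4, and 25, 24, 21 and 14 of them were well above background there. The reverse signal varied less: the 35 antennal odorant receptors had a median of 1.11, 1.09, 1.07 and 0.834% of their antennal level on the brain arrays. Only 19, 18, 17 and 16 of them were well above background there. Background limits how low the percentages of the others can go, so the steadiness of the 2 signals cannot be compared. The members were picked by the same contrast, so these percentages are a description. The part that RNA of the other tissue had in any value was not tested, and the fold differences of brain genes depend on these low antennal signals.

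Markers of other tissues were present on both sets of arrays. Of 24 gut protease genes tested, 3 were higher and 3 lower in antennae and 18 did not pass. The filter fixed the direction of those that entered through 1 tissue alone, 6 through the brain and 1 through the antennal arrays. Among the 17 well above background in both tissues 2 were higher and none lower, against 33.2% and 41.4% of all genes. The trypsin gene betaTry was at 4.27, 5.42, -1.17 and -2.75 on the antennal arrays, against 5.45, 0.38, 4.54 and 0.06 on the brain arrays, a spread within each tissue that was wider than the difference between them (-1.16 ± 2.10, adjusted p = 0.630). The summed signal of this list ranged from 47.6 to 358 times the 75th percentile signal on the antennal arrays and from 32.9 to 344 on the brain arrays. iotaTry, another trypsin gene, stood apart at -2.65, -2.37, -2.31 and -2.39 in antennae and was well above background on no brain array, at least 35.6-fold higher in antennae (adjusted p = 1.27e-06).

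Fat body genes were lower in antennae in 5 of 10 tested cases, near the 41.4% of all genes, and higher in 1. The yolk protein gene Yp1 was at 1.28, 2.46, 2.77 and 1.25 on the antennal arrays, against 3.53, 3.53, 2.85 and 2.63 on the brain arrays, groups that overlapped (difference -1.20 ± 0.40, adjusted p = 0.0236). This call was lost without antennal array 1 or 4 or brain array 1 or 2 (adjusted p from 0.0604 to 0.0629). The lipophorin gene apolpp was lower by a difference of -1.77 ± 0.24 without overlap. Of 14 haemocyte genes 5 were higher and 7 lower, near the shares of all genes (33.2% and 41.4%), and their summed signal ranged from 17 to 21.4 in antennae and from 29.3 to 30.9 in brain. Of 8 male and testis genes tested 4 did not pass, against 25.3% of all genes. The seminal protein gene Acp36DE, too dim to test, was well above background on no antennal array and, for some of its probes, on 2 brain arrays.

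Muscle genes were higher in antennae in 18 of 21 cases, against 33.2% of all genes, with a median difference of 1.53. Myosin heavy chain (Mhc) was at 2.91, 3.53, 3.18 and 3.03 on the antennal arrays, against 1.73, 1.62, 1.0 and 1.55 on the brain arrays. Its difference of 1.69 ± 0.19 was 0.75 on the starved arrays, where it was not called (adjusted p = 0.064). The summed signal of the muscle list was 120 to 171 in antennae and 54.6 to 69.5 in brain, so both tissues carried muscle transcripts on every array.

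Odorant receptors were the family with the largest differences after the co-receptors. All 35 antennal Or genes that could be tested were higher in antennae, by 3.04 to 8.68 with a median of 6.66, against 33.2% of all genes tested. Through the antennal arrays alone, 23 of them entered the test and so had to lie higher there, and for 13 of these, well above background on no brain array, the difference was taken against signals at background. The other 12 were well above background in both tissues and were higher as well. Or33b, Or49a and Or98b were on the array but too dim to test in either tissue.

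Or85a had the largest fold bound of the family. Its level was 0.17, 0.31, 0.35 and 0.48 on the antennal arrays, and it was well above background on no brain array, which put it at least 239-fold higher in antennae (adjusted p = 8.06e-08). Such a bound sets the mean of the antennal arrays against the higher of each brain array's detection floor and the probe's own signal. By the same measure Or56a, the receptor for the mould odour geosmin, was at least 222-fold higher, Or59b at least 219-fold, Or43a at least 176-fold and Or67b at least 170-fold.

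Or59b, a receptor for acetate esters in basiconic sensilla, was at 0.53, 0.64, 0.71 and 0.74 on the antennal arrays, against -6.97, -7.02, -7.71 and -6.77 on the brain arrays, none of them well above background. Or7a was at 0.48, 0.58, 0.77 and 0.77 in antennae, against -6.30, -6.76, -7.11 and -6.46 in brain, where 3 arrays were well above background. Or67d, the receptor for the male pheromone cis-vaccenyl acetate in trichoid sensilla, was at -0.76, -0.88, -0.62 and -0.93 in antennae, and well above background on no brain array, at least 112-fold higher. The antennal arrays of these 3 receptors covered ranges of at most 0.31, and no brain array came near them.

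Or47b, a pheromone receptor of trichoid sensilla, was well above background on all 8 arrays and still 196-fold higher in antennae, at 2.53, 2.36, 2.53 and 2.38 in antennae against -5.18, -4.87, -5.25 and -5.38 in brain. Other receptors measured on all 8 arrays were Or42b, which responds to vinegar odours (difference 7.24 ± 0.15), Or22a, which responds to fruit esters (6.87 ± 0.17), Or88a (5.20 ± 0.10) and Or65a (5.49 ± 0.33). The lowest difference of the family was that of Or10a, 3.04. Or22a and Or22b, and the genes Or65a, Or65b and Or65c, are neighbours of similar sequence, and whether their probes bind more than 1 of them was not tested.

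Receptors of the maxillary palp, the second olfactory organ, were not absent from the antennal arrays. Of 7 such genes on the array 5 were tested and 4 were higher in antennae, each of which had entered the test through the antennal arrays alone. Or46a was at least 124-fold higher, at -0.86, -0.86, -0.68 and -0.68 in antennae and well above background on no brain array. Or42a was at least 8.34-fold higher, at -4.56, -4.76, -4.30 and -4.73 in antennae. Or71a was at -3.68, -3.82, -4.09 and -3.89 in antennae and -3.60, -3.57, -3.91 and -3.54 in brain, which overlapped.

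Of 13 further Or genes, most of them known from larvae, 4 were tested. Or1a and Or45b were higher by less than 2-fold (the arrays of Or45b overlapped), Or83a was lower, and Or63a had the opposite pattern to its family. It was well above background on no antennal array and was at -2.84, -2.79, -2.73 and -3.09 on the brain arrays, at least 23.5-fold lower in antennae (adjusted p = 4.08e-08).

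The co-receptors of the ionotropic family were not uniform. Ir8a was at 0.03, -0.23, 0.11 and -0.02 in antennae and well above background on no brain array, at least 169-fold higher. Ir25a was at 1.06, 0.86, 1.16 and 0.99 in antennae, against -5.31, -5.90, -5.85 and -5.58 in brain, a difference of 6.68 ± 0.14. Both separated the tissues completely.

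Ir76b was read by a pair of probes that disagreed. The brighter one was at 1.28, 2.20, 2.29 and 2.0 in antennae, against 2.85, 2.66, 1.80 and 0.80 in brain, and did not pass (difference -0.09 ± 0.45, adjusted p = 0.871). The other was at 2.55, 2.79, 2.85 and 2.76 in antennae, against -4.35, -4.15, -4.53 and -4.21 in brain, a difference of 7.04 ± 0.11 (adjusted p = 1.21e-09). The second probe gave the tight replicates seen in the other co-receptors, while the first covered a range of 2.05 on the brain arrays. Which probe follows the Ir76b transcript was not tested.

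Tuning receptors of the Ir family were higher in antennae in 11 of 12 cases, with a median difference of 5.11. The filter fixed the direction of 6, of which 5 entered through the antennal arrays alone and Ir68a through the brain arrays alone, and the 6 well above background in both tissues were higher (33.2% of all genes were). Ir75a, which responds to acetic acid, was at 1.04, 0.89, 1.28 and 0.99 in antennae, against -6.41, -6.45, -6.43 and -6.49 in brain. Ir84a, the receptor for phenylacetaldehyde, was at -1.54, -2.01, -1.53 and -2.05 in antennae and was at least 56.8-fold higher, since no brain array was well above background. Ir64a, an acid receptor, was at least 101-fold higher and Ir92a, an ammonia receptor, differed by 5.29 ± 0.16 with 3 brain arrays well above background.

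Members outside this range were Ir76a, with differences of 0.66 ± 0.14 and, by a second probe, 2.13 ± 0.12, and Ir68a, which serves humidity sensing. Ir68a was at -3.43, -3.42, -3.52 and -3.84 on the brain arrays and well above background on no antennal array, at least 9.44-fold lower in antennae (adjusted p = 3.71e-07).

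Most gustatory receptor genes were too dim to test, 43 of 59 on the array. Of the 16 tested, 11 were higher and 3 lower in antennae, 6 having entered the test through the antennal arrays alone and 2 through the brain arrays alone. Among the 8 well above background in both tissues 5 were higher and 1 lower, against 33.2% and 41.4% of all genes. Gr21a and Gr63a, which together form the carbon dioxide receptor, both marked the antenna. Gr21a was well above background on no brain array and at least 85.6-fold higher. Gr63a was at 1.42, 1.45, 1.62 and 1.57 in antennae, against -5.10, -4.96, -4.80 and -4.91 in brain, 88.0-fold higher.

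Gr64f, a sugar co-receptor, was at -0.43, -0.68, -0.36 and -0.40 in antennae, against -6.47, -6.37, -7.67 and -8.99 in brain, where 2 arrays were well above background. Gr10a differed by 4.84 ± 0.09 and the fructose receptor Gr43a by 2.64 ± 0.10. Gr77a was at least 5.62-fold lower in antennae. The sugar receptor Gr5a was well above background on no array of either tissue.

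Gr28b, which encodes several receptor isoforms including a warmth receptor of the arista, was read by probes for different transcripts that split between the tissues. The probe for transcript RD was at -4.18, -4.45, -4.03 and -4.61 in antennae and well above background on no brain array (at least 10.4-fold higher, adjusted p = 5.50e-07). The probes for RA and RB showed the reverse, at least 3.77-fold and 2.79-fold lower in antennae, where no array was well above background. Another RC probe did not pass (0.91 ± 0.51, adjusted p = 0.137). The brightest probe of the gene was higher in antennae by 2.44 ± 0.11. Both tissues thus held Gr28b signal, from different probes.

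**Figure D2:**
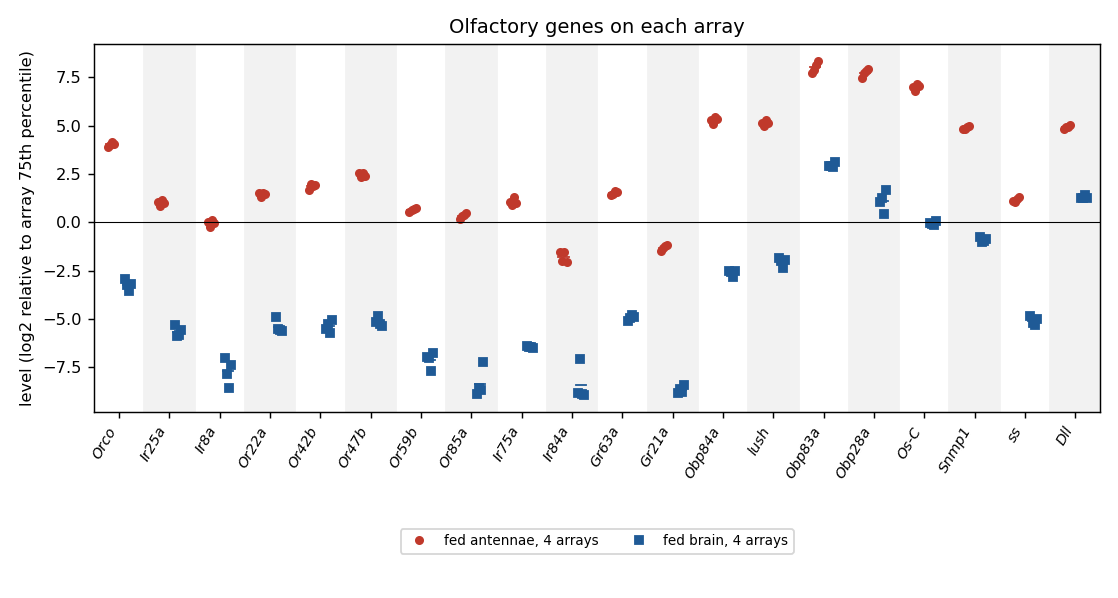
Level of 20 olfactory genes on each array, as log2 relative to the array's 75th percentile, with fed antennae to the left (red circles) and fed brain to the right (blue squares) of each gene and short lines for the means of 4 arrays. The tissues do not overlap in any of the 20 genes, and the antennal arrays of a gene lie closer together than the brain arrays of receptors such as Or85a or Ir84a that were near background in brain.

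Odorant-binding proteins are small carriers of the sensillum lymph. Of 52 on the array, 40 were tested, 27 were higher and 5 lower in antennae, with a median difference of 2.65. The filter fixed the direction of 4, which entered through the antennal arrays alone. Of the 36 well above background in both tissues 23 were higher and 5 lower, against 33.2% and 41.4% of all genes. Obp84a was at 5.31, 5.11, 5.45 and 5.35 on the antennal arrays, against -2.50, -2.57, -2.84 and -2.54 on the brain arrays, a 242-fold difference. Obp69a, Obp19a and Obp59a followed with differences of 7.64 ± 0.12, 7.63 ± 0.17 and 7.51 ± 0.19. The antennal and brain arrays of these 4 genes did not overlap.

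lush, the binding protein required for the response to cis-vaccenyl acetate, was at 5.13, 4.98, 5.27 and 5.12 in antennae, against -1.86, -2.0, -2.34 and -1.97 in brain. Obp28a and Obp83a were bright in both tissues. Obp83a was at 7.72, 7.87, 8.16 and 8.36 in antennae, against 2.92, 2.93, 2.87 and 3.11 in brain, a difference of 5.07 ± 0.14, and a second probe of Obp83a differed by 7.28 ± 0.11. On the brain arrays the 24 binding proteins called at least 4-fold higher had a median of 2.66 to 3.94% of their antennal level.

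Binding proteins of the brain were few. Obp44a was at 3.14, 3.55, 0.96 and 0.70 in antennae, against 6.91, 6.99, 7.17 and 7.07 in brain, 30.9-fold lower in antennae. Obp18a was at -0.69, -0.80, -1.10 and -1.25 in antennae, against 1.52, 1.44, 1.67 and 1.54 in brain. Obp56h was lower by a difference of -2.63 ± 0.47 with antennal arrays over a range of 2.63.

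Auxiliary olfactory proteins were higher in antennae in 11 of 12 cases, against 33.2% of all genes. Os-C, first described as an olfactory-specific gene, was at 7.00, 6.80, 7.16 and 7.07 in antennae, against -0.06, -0.11, -0.14 and 0.06 in brain. The antennal protein genes a5 and a10 differed by 7.14 ± 0.14 and 5.82 ± 0.14. Snmp1, a membrane protein that pheromone-sensing neurons require, differed by 5.79 ± 0.09 and its relative Snmp2 by 2.45 ± 0.14. Est-6, an esterase of the antenna, was 14.1-fold higher.

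The takeout family, carriers of small lipophilic molecules, was higher in 13 of 18 cases and lower in 3, with a median difference of 3.77. Among all genes 33.2% were higher and 41.4% lower. takeout itself (to) was at 4.34, 4.06, 4.21 and 4.05 in antennae, against -0.28, -0.64, -1.0 and -0.06 in brain. Jhbp15 (CG17279) had the largest difference of the family, 7.08 ± 0.28. Jhbp2 (CG2016) went the other way, at 0.28, 0.51, -0.64 and -0.73 in antennae against 4.46, 4.64, 4.57 and 4.88 in brain.

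Genes of the sensory cilium and of Johnston's organ were higher in antennae in 32 of 35 cases, with a median difference of 4.99. Through the antennal arrays alone, 12 of them entered the test, and of the 23 well above background in both tissues 20 were higher and 2 lower, against 33.2% and 41.4% of all genes. The intraflagellar transport and basal body genes BBS8, IFT52 and tectonic differed by 7.47 ± 0.20, 7.25 ± 0.25 and 6.95 ± 0.11, with 2 brain arrays well above background for BBS8 and 1 for IFT52. Cluap1, another intraflagellar transport gene, was at 1.66, 1.52, 1.62 and 1.76 in antennae, against -5.80, -5.62, -6.22 and -5.36 in brain. CCDC151, a dynein arm docking gene, was at least 140-fold higher and the axonemal dynein gene Dhc93AB 89.3-fold higher. Chordotonal cilia move, and both dynein genes belong to that machinery.

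The channels of the hearing organ were among them. nan and iav, TRP channel subunits of the chordotonal cilium, differed by 6.01 ± 0.45 and 4.99 ± 0.17. nompC, the mechanotransduction channel, was at -2.48, -2.15, -2.38 and -2.18 in antennae, against -5.02, -4.76, -5.24 and -5.38 in brain. All of them separated the tissues, although nan was well above background on 2 brain arrays.

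The cilium genes that were not higher were Kap3, a kinesin-associated subunit shared with axonal transport (difference -0.23 ± 0.06), its partner Klp64D (0.00, not called) and Gas8. The call of Kap3 was lost when arrays were centred on the median and on the starved arrays (adjusted p = 0.128 and 0.113), and its second probe, well above background on all 8 arrays, differed by -3.63 ± 0.61. Gas8 had a pair of probes in disagreement, the brighter with a difference of -1.09 ± 0.09 and the other at least 25.8-fold higher in antennae, well above background on all antennal arrays and on no brain array.

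Transcription factors listed for the antenna were higher in 10 and lower in 8 of 18 cases. The filter fixed the direction of those that entered through 1 tissue alone, 1 through the antennal and 2 through the brain arrays. Of the 15 well above background in both tissues 9 were higher and 6 lower, against 33.2% and 41.4% of all genes. aristaless (al), a homeobox gene of the arista, was at least 80.2-fold higher in antennae. spineless (ss), the gene that sets antennal identity, was at 1.08, 1.02, 1.23 and 1.32 in antennae, against -4.85, -5.21, -5.30 and -4.98 in brain. Distal-less (Dll), a limb homeobox gene, was at 4.84, 4.92, 4.94 and 5.03 in antennae, against 1.24, 1.25, 1.41 and 1.25 in brain. shaven (sv), a Pax gene of sensory organs, differed by 3.49 ± 0.09.

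The members that were lower in the adult antenna included genes known from the developing antennal disc. distal antenna (dan) was at -5.41, -5.34, -6.34 and -5.89 in antennae, against -0.71, -0.67, -0.70 and -0.76 in brain, 32.8-fold lower, and 3 antennal arrays were well above background. distal antenna-related (danr), atonal (ato) and rotund (rn) were lower by differences of -3.57, -3.74 and -4.57, ato with 1 antennal array well above background. The filter fixed the direction of dan and ato, which entered the test through the brain arrays alone. acj6, a POU gene that acts in both olfactory receptor neurons and brain, was higher by 0.87 ± 0.10.

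Enzymes of detoxification and odour clearance were more often higher than lower in antennae, where 33.2% of all genes were higher and 41.4% lower. Cytochrome P450 genes were higher in 44 and lower in 19 of 68 cases (median difference 1.42), glutathione S-transferases in 27 and 4 of 34 (1.97), and UDP-glycosyltransferases in 18 and 2 of 22 (1.84). Cyp308a1 was at 4.75, 4.69, 4.88 and 4.89 in antennae, against -2.37, -2.56, -3.31 and -2.56 in brain, 181-fold higher. GstE4 was at 6.96, 6.96, 7.10 and 7.24 in antennae, against 0.03, 0.03, -0.20 and 0.26 in brain, 131-fold higher.

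Others were Cyp6w1 (difference 4.32 ± 0.14), GstD11 (5.18 ± 0.08) and Ugt37E1, which was at least 50.8-fold higher. AOX4, an aldehyde oxidase, had the largest difference of all genes measured on the 8 arrays, at 3.88, 3.88, 4.06 and 3.99 in antennae, against -4.03, -3.97, -4.42 and -3.85 in brain, 260-fold. On the brain side Cyp28d1 was at 2.63, 2.91, 2.50 and 2.30 in antennae, against 5.05, 5.07, 5.13 and 5.29 in brain. Most members were measured in both tissues, 62 of the 68 P450 genes being well above background in each.

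Cuticular protein genes were higher in 26 and lower in 14 of 50 tested, while 72 others were too dim to test. The filter fixed the direction of those that entered through 1 tissue alone, 6 through the antennal and 6 through the brain arrays. Of the 38 well above background in both tissues 20 were higher and 8 lower, against 33.2% and 41.4% of all genes. Cpr64Ac was at 1.30, 1.92, 1.92 and 1.99 in antennae, against -5.95, -6.17, -5.0 and -4.71 in brain. Among the 12 largest differences of genes well above background on all 8 arrays were CG15169, CG33159 and CG9864 (7.70, 7.67 and 7.43), for which no role is given here. Among genes well above background on no brain array, CG10357 was at least 286-fold, lncRNA:CR33948, a long non-coding RNA, at least 166-fold, CG13855 at least 143-fold and Hsc70-2, a member of the Hsp70 chaperone family, at least 123-fold higher in antennae.

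On the brain side, neuropeptide genes stood out. All 33 peptide precursors that could be tested were lower in antennae, 29 of them at least 4-fold, against 41.4% of all genes, and the median difference was -5.71. Through the brain arrays alone, 16 entered the test and had to lie lower in antennae, and the 17 that were well above background in both tissues were lower as well. The contrast was lowest for sNPF, ITP and Ptth and largest for Hug.

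Hugin (Hug), a peptide of feeding-related neurons, was at -2.28, -3.53, -6.49 and -6.06 in antennae, against 3.37, 3.19, 3.77 and 3.64 in brain. Myosuppressin (Ms) was at -1.46, -3.25, -4.83 and -8.60 in antennae, against 3.21, 3.33, 3.42 and 3.37 in brain. Allatostatin C (AstC) was at -3.17, -4.34, -4.67 and -8.56 in antennae, against 2.49, 2.36, 2.47 and 2.4 in brain. No antennal array reached the brain arrays in these genes, but the antennal arrays covered ranges of 4.21, 7.14 and 5.40, with 3 of them well above background in each gene.

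The size of these folds therefore rested on single antennal arrays. The difference of Hug was -8.08 ± 0.88 over all arrays, -8.85 without antennal array 1 and -7.45 without antennal array 3. That of Ms was -7.87 ± 1.31, -8.89 without antennal array 1 and -6.51 without antennal array 4, and that of AstC -7.62 ± 1.01, -8.29 and -6.49 without the same arrays. That of Pdf was -5.92 without antennal array 4.

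Peptides with a low and steadier antennal signal included NPF, which promotes feeding, at -2.90, -3.42, -3.92 and -3.80 in antennae, against 1.91, 1.77, 2.23 and 1.93 in brain. Allatostatin A (AstA), which acts in satiety, was at -1.32, -1.56, -2.14 and -2.60 in antennae, against 3.45, 3.35, 3.59 and 3.66 in brain, 42.8-fold lower. CCHamide-1 (CCHa1) was at -2.59, -2.71, -2.76 and -2.61 in antennae, against 1.53, 1.77, 0.82 and 0.38 in brain. Here the antennal arrays covered a range of 0.17 and the brain arrays one of 1.40.

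The adipokinetic hormone gene (Akh), which is known from the corpora cardiaca attached to the brain, was lower by -6.26 ± 0.38 and Dh44 by -4.73 ± 0.23. Among genes well above background on no antennal array, the glycoprotein hormone gene Gpa2 was at least 36.0-fold and the allatostatin double C gene AstCC at least 32.4-fold lower.

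Short neuropeptide F (sNPF) was the exception in size. It was at 1.29, 1.10, 1.30 and 1.29 in antennae, against 1.56, 1.55, 1.66 and 1.55 in brain, a difference of -0.33 ± 0.08 (adjusted p = 0.00364) without overlap. The call was lost when arrays were centred on the median (adjusted p = 0.0574). The ion transport peptide gene (ITP) was likewise close, at 2.42, 2.28, 2.41 and 2.31 in antennae, against 2.80, 2.74, 3.04 and 2.92 in brain. A second probe of ITP, well above background on all 8 arrays, differed by -2.41 ± 0.12 (adjusted p = 3.15e-07), so the size of its difference depended on the probe.

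Receptors of peptides were less divided than the peptides, with 27 lower and 5 higher of 34 and a median difference of -1.92. Through the brain arrays alone, 7 entered the test, and of the other 27 measured in both tissues 20 were lower, against 41.4% of all genes. The tachykinin receptor gene TkR99D was at -6.42, -6.06, -7.59 and -8.26 in antennae, against -0.98, -0.71, -0.87 and -0.97 in brain, with 1 antennal array well above background. The receptor of sNPF (sNPF-R) was at 0.40, 0.25, 0.52 and 0.56 in antennae, against 1.02, 0.96, 1.14 and 0.87 in brain, a difference of -0.56 ± 0.10. That of allatostatin A (AstA-R1) was at -2.38, -2.48, -2.75 and -2.70 in antennae, against 0.08, 0.18, 0.20 and 0.19 in brain.

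The CCHamide-1 receptor (CCHa1-R) was dim in both tissues, at -5.85, -6.27, -7.05 and -6.16 in antennae, where 3 arrays were well above background, against -4.58, -4.51, -4.79 and -4.68 in brain. Its difference was -1.69 ± 0.23 (adjusted p = 1.96e-04). CCKLR-17D1, a receptor for drosulfakinin, was the receptor most weighted to antennae, at 0.31, 0.17, 0.47 and 0.18 in antennae against -2.15, -2.38, -3.37 and -3.76 in brain.

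Transmitter systems differed in how far they were shared. GABA and glutamate genes were lower in 17 of 20 cases with a median of -4.46. Through the brain arrays alone, 7 entered the test, and of the 13 well above background in both tissues 10 were lower and 2 higher, against 41.4% and 33.2% of all genes. Gad1, which makes GABA, was at -0.04, -0.61, -2.37 and -4.07 in antennae, against 5.0, 5.09, 5.21 and 5.22 in brain. The vesicular glutamate transporter VGlut was at -1.88, -2.83, -4.08 and -6.13 in antennae, against 2.88, 2.94, 2.98 and 2.87 in brain. Their differences of -6.90 ± 0.79 and -6.65 ± 0.79 were -6.14 and -5.85 without antennal array 4, and that of VGlut was -7.26 without antennal array 1.

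Glutamate handling was partly antennal. The transporter gene Eaat2 was at 4.12, 4.23, 4.33 and 4.28 in antennae, against 3.13, 3.13, 3.24 and 3.12 in brain, and glutamine synthetase 2 (Gs2) differed by 0.63 ± 0.09. Eaat1, the other glutamate transporter gene, was lower by -2.30 ± 0.14. The GABA receptor gene Rdl differed by -0.69 ± 0.14, and its other probes by -1.15, -1.37 and -1.42.

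Cholinergic genes split between synthesis and reception. Acetylcholine is the transmitter of olfactory receptor neurons, and choline acetyltransferase (ChAT) was at 0.92, 0.99, 0.99 and 1.01 in antennae, against 2.0, 2.14, 2.16 and 2.08 in brain. The vesicular transporter VAChT differed by -0.86 ± 0.09. Receptor subunits such as nAChRalpha2 were far lower. In all, 14 of 16 list members were lower and 4 lay within 2-fold. The filter fixed the direction of 2, which entered through the brain arrays alone. Of the 14 well above background in both tissues 12 were lower, against 41.4% of all genes. nAChRalpha2 was at -3.28, -3.66, -5.09 and -7.62 in antennae, against 2.13, 2.28, 2.28 and 2.01 in brain, a difference of -7.09 ± 0.85, and of -6.18 without antennal array 4, with 3 antennal arrays well above background. A second probe of it differed by -5.74 ± 0.34.

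Genes of amine synthesis and transport were lower in 9 and higher in 3 of 13 cases. The filter fixed the direction of 2, which entered through the brain arrays alone. Of the 11 well above background in both tissues 7 were lower and 3 higher, against 41.4% and 33.2% of all genes. Trhn, the neuronal enzyme of serotonin synthesis, was at -5.98, -7.60, -8.37 and -8.55 in antennae, against -0.98, -0.99, -0.87 and -1.03 in brain, with 1 antennal array well above background. Tdc2, the neuronal enzyme of tyramine synthesis, was well above background on no antennal array and at least 20.6-fold lower. Dopa decarboxylase (Ddc), Tbh and ebony (e) were lower by -3.98 ± 0.18, -3.54 ± 0.14 and -5.04 ± 0.40.

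The serotonin transporter gene SerT went the other way, at 3.17, 2.93, 3.02 and 2.86 in antennae against 0.18, 0.16, 0.37 and 0.07 in brain, 6.97-fold higher. Tdc1, the non-neuronal tyrosine decarboxylase, and Punch (Pu), which makes the cofactor of tyrosine hydroxylase, were higher by 2.32 ± 0.25 and 1.63 ± 0.09. Tyrosine hydroxylase itself (ple) differed by -0.46 ± 0.10, and by -0.04 on the starved arrays, where it was not called. Its other probes, both well above background on all 8 arrays, differed by -0.36 ± 0.09 and -5.05 ± 0.21, so that they disagreed in size. Of 15 amine receptors 13 were lower, and 2 had entered the test through the brain arrays alone. Among the 13 well above background in both tissues 11 were lower, against 41.4% of all genes. The dopamine receptor gene Dop2R had the largest difference, at -3.08, -3.66, -3.77 and -4.30 in antennae against 1.27, 1.31, 1.32 and 0.82 in brain. A second probe of Dop2R, well above background on 1 antennal array, differed by -2.98 ± 0.66.

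Transcription factors that pattern the brain and optic lobe were lower in 21 of 24 cases and higher in none, with a median of -4.22. Through the brain arrays alone, 7 entered the test, and of the 17 well above background in both tissues 14 were lower, against 41.4% of all genes. eyeless (ey), a Pax6 gene of eye and mushroom body, was at -4.24, -5.06, -4.75 and -5.91 in antennae, against -0.05, 0.16, 0.02 and -0.19 in brain, and its relative toy was lower by -4.58 ± 0.29. The optic lobe homeobox genes bsh and Vsx1 were lower by -5.98 ± 0.59 and -6.42 ± 0.78, the second by -5.67 without antennal array 4, and each had 2 antennal arrays well above background. Lim1 was lower by -1.31 ± 0.10. Pox neuro (Poxn), Awh and slouch (slou), further developmental regulators, were well above background on no antennal array and at least 40.9-fold, 40.3-fold and 31.6-fold lower.

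The unc80 and unc79 genes, whose products regulate a sodium leak channel of clock neurons, were lower by -6.37 ± 0.51 and -4.74 ± 0.21. Among 24 voltage-gated and leak channels the median was -0.75, and 14 were lower and 4 higher, against 41.4% and 33.2% of all genes. The main sodium channel gene para was at 1.97, 1.83, 1.92 and 1.85 in antennae, against 2.17, 2.21, 1.97 and 1.6 in brain, groups that overlapped (difference -0.09 ± 0.14, adjusted p = 0.547).

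Of 19 glial genes 10 were lower and 7 higher, where 41.4% of all genes were lower and 33.2% higher. The large differences lay mostly on the brain side. At least 4-fold differences were called in 8 that were lower and 1 that was higher, against 10.3% and 9.24% of all genes. alrm, the marker of astrocyte-like glia, was at -0.60, -1.34, -3.32 and -4.41 in antennae, against 3.48, 3.49, 3.64 and 3.32 in brain. Its difference was -5.90 ± 0.76, -5.24 without antennal array 4 and -6.51 without antennal array 1. wrapper and the GABA transporter gene Gat were lower by -5.24 ± 0.30 and -4.12 ± 0.21.

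The general glial gene repo was at 1.08, 1.01, 0.92 and 0.75 in antennae, against 1.94, 1.91, 2.07 and 1.82 in brain, about 2-fold lower. moody, a receptor of the glia that seal the nervous system, was higher in antennae, at 2.24, 2.33, 2.4 and 2.44 in antennae against 1.56, 1.58, 1.74 and 1.72 in brain. The septate junction genes Gliotactin (Gli) and Contactin (Cont), which epithelia also use, were higher by 2.91 ± 0.10 and 1.53 ± 0.08.

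Other genes with the largest brain differences were not neuronal by name. The mucin gene Muc68D was at -2.73, -0.15, -5.26 and -5.48 in antennae, against 3.50, 3.81, 3.07 and 4.27 in brain, and CG3906 at -4.33, -2.56, -6.64 and -6.25 in antennae, against 2.70, 2.72, 2.32 and 3.42 in brain. In both, as in CG34324 (difference -6.62) and CG34220 (-6.42), antennal array 2 was the highest, and without it the differences were -8.16, -8.53, -7.66 and -7.49 in that order. In Muc68D the difference was also -6.45 without antennal array 3 and -6.38 without antennal array 4, and in CG34324 -6.01 without antennal array 4. In Gad1, CG12239 (-6.86, and -6.19 without antennal array 4), Hasp (-6.55, and -5.79) and natalisin (-6.30) antennal array 4 was the lowest. Array 4 was also the lowest antennal array in Muc68D, CG34324 and CG34220, and array 3 in CG3906. The 2 sets of genes thus differed in their highest antennal array, which was array 2 in the first and array 1 in the second.

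CG14075 differed by -6.86 ± 0.48. Among genes well above background on no antennal array, CG32651 was at least 46.8-fold, CG32532 at least 36.1-fold, CG14331 at least 34-fold, the cell-surface gene beat-Va at least 33.9-fold, Taf12L at least 32.1-fold, the chitinase gene Cht4 at least 31.7-fold and the cadherin gene CadN2 at least 30.9-fold lower in antennae. The brain arrays of CG32651 spread from -3.04 to 0.00.

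**Figure D3:**
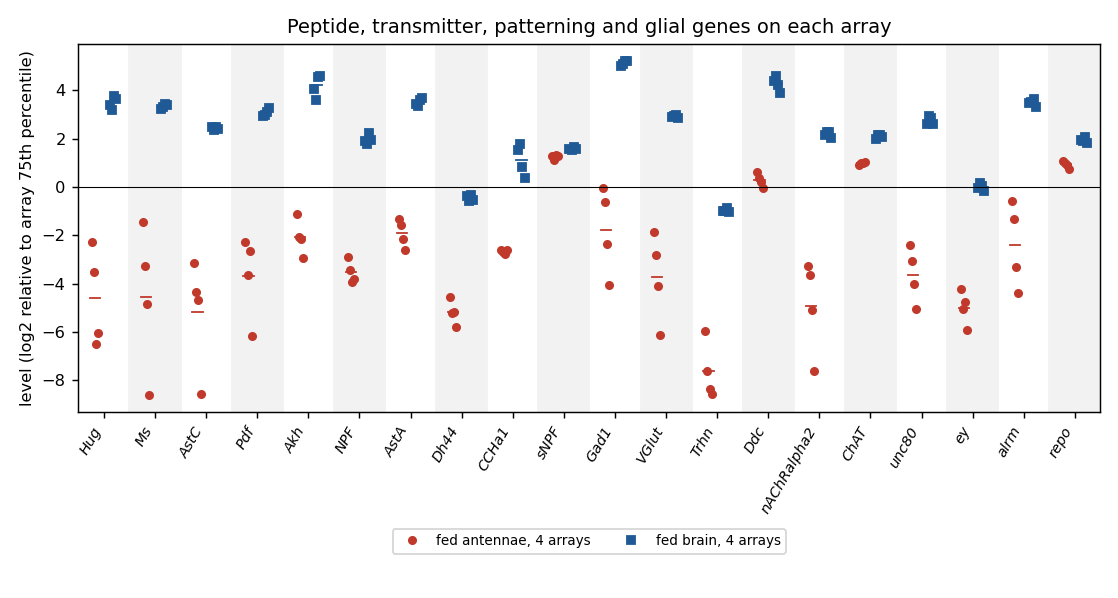
Level of 20 peptide, transmitter, patterning and glial genes on each array, as log2 relative to the array's 75th percentile, with fed antennae to the left (red circles) and fed brain to the right (blue squares) of each gene and short lines for means of 4 arrays. The brain arrays lie together, except in CCHa1 (a range of 1.40), while the antennal arrays of genes such as Ms run over several log2 units, and sNPF, ChAT and repo show small differences.

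Classes shared between the tissues included the basic machinery of neurons. Of 21 synaptic vesicle and active zone genes, all well above background on the 8 arrays, 20 were lower in antennae, against 41.4% of all genes. Their median was nevertheless -1.29, with a range from -2.88 to -0.12. Neuronal synaptobrevin (nSyb) was at 3.00, 2.65, 2.85 and 2.98 in antennae, against 3.77, 3.68, 3.87 and 3.65 in brain, and synaptotagmin 1 (Syt1) differed by -0.74 ± 0.11. Snap25, a partner of both in vesicle fusion, had the largest difference, at 0.94, 0.52, 0.34 and 0.39 in antennae against 3.37, 3.51, 3.36 and 3.46 in brain.

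Liprin-alpha was the member nearest to 0, with a difference of -0.12 that did not pass. The general neuronal RNA-binding gene elav was at 2.39, 2.41, 2.4 and 2.05 in antennae, against 3.13, 3.51, 3.47 and 3.24 in brain, about 2-fold lower. Of 12 such panneuronal genes 10 were lower and 1 higher, against 41.4% and 33.2% of all genes, with a median of -0.87.

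Genes of phototransduction were bright in both tissues. Of 28 tested 25 were lower in antennae and 2 higher, against 41.4% and 33.2% of all genes. Yet 18 (of 28) differed by less than 2-fold, with a median of -0.80. The main opsin gene of the compound eye, ninaE, was at 5.62, 5.29, 5.52 and 5.51 in antennae, against 5.82, 5.77, 5.82 and 6.05 in brain, a difference of -0.38 ± 0.10 (adjusted p = 0.00791) that was not called when arrays were centred on the median (0.0646). Arrestin 2 (Arr2) was at 6.44, 5.82, 6.11 and 6.05 in antennae, against 6.68, 6.78, 6.84 and 7.15 in brain, and the phospholipase C gene norpA differed by -0.67 ± 0.09.

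Rh2, the opsin gene of the ocelli, departed from this pattern. It was at 0.45, 0.08, 0.85 and -2.22 in antennae, against 5.75, 5.65, 5.91 and 5.84 in brain, 63.9-fold lower, with a difference of -6.0 ± 0.60 and of -5.33 without antennal array 4. The summed signal of the phototransduction list was 201 to 278 in antennae and 383 to 507 in brain. Transcripts of phototransduction genes were therefore on all arrays of both tissues. Whether they came from the retina was not tested, and neither was their part in the other results.

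Clock genes differed little. Of 13 tested 6 were higher in antennae and 1 was lower (33.2% and 41.4% of all genes), and 10 lay within 2-fold. vrille (vri), cryptochrome (cry) and timeless (tim) were higher by 1.89 ± 0.16, 1.63 ± 0.22 and 1.27 ± 0.30. tim was at 2.50, 2.57, 2.74 and 2.97 in antennae, against 0.59, 1.41, 1.49 and 2.21 in brain, the brain arrays spreading widely. period (per) was at 1.90, 2.13, 2.31 and 2.19 in antennae, against 1.53, 2.06, 2.13 and 2.08 in brain, which overlapped (adjusted p = 0.307). The hour of dissection was not given in the sources used here.

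Housekeeping genes lay within 2-fold in all 17 tested cases. Gapdh2 was at 5.70, 5.76, 5.79 and 5.81 in antennae, against 5.70, 5.75, 5.82 and 5.81 in brain (difference -0.01 ± 0.07, adjusted p = 0.937). Actin 5C (Act5C) differed by 0.14 ± 0.10 (adjusted p = 0.259). Both differences changed sign under another scaling, Gapdh2 to 0.03 with the array median and Act5C to -0.31 with quantile normalization.

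Protein synthesis and breakdown behaved differently. Of 85 cytoplasmic ribosomal protein genes 47 were higher in antennae and 1 lower, against 33.2% and 41.4% of all genes. Within 2-fold lay 84 of the 85, and the median of 0.25 became -0.09 with quantile normalization. RpL32 was at 6.27, 6.47, 6.38 and 6.48 in antennae, against 5.98, 6.07, 5.93 and 6.32 in brain, and its call (difference 0.32 ± 0.10, adjusted p = 0.0200) was lost without antennal array 2 or 4 or brain array 1 or 3 (0.0528 to 0.0566), and its difference was -0.00 with quantile normalization. RpS19b, a second copy of a subunit gene, was higher by 2.22, with 2 brain arrays well above background.

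Proteasome subunits were higher in 33 of 36 tested cases and lower in none, with a median of 1.15. Of the 34 well above background in both tissues 32 were higher, against 33.2% of all genes. Prosalpha5, a subunit of the core particle, was at 4.28, 4.06, 4.40 and 4.25 in antennae, against 2.27, 2.29, 2.51 and 2.48 in brain, 3.63-fold higher. The whole list lay between -0.03 and 1.86.

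Energy metabolism leaned to the antennae by small amounts. Of 76 respiratory chain genes 59 were higher and 2 lower, with a median of 0.50, and 70 lay within 2-fold. Among the 74 well above background in both tissues 58 were higher and 1 lower, against 33.2% and 41.4% of all genes. Of 24 glycolysis and TCA cycle genes 11 were higher and 1 lower, and the sign of their median turned with quantile normalization. Isocitrate dehydrogenase (Idh) was the most different of these, at 5.87, 6.0, 6.02 and 6.03 in antennae against 4.6, 4.42, 4.59 and 4.58 in brain. Of 72 mitochondrial ribosomal protein genes 22 were higher, 9 lower and 41 did not pass, against 33.2%, 41.4% and 25.3% of all genes. Among them mRpL37 stood apart with a difference of 5.84, with 2 brain arrays well above background.

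Immune and stress genes did not mark either tissue as a class. Of 10 antimicrobial peptide genes 2 were higher, 1 lower and 7 did not pass, against 33.2%, 41.4% and 25.3% of all genes. Defensin (Def) was at -2.12, 0.63, -0.89 and -0.88 in antennae, against -5.66, -4.31, -5.21 and -4.03 in brain, a difference of 3.98 ± 0.59 that was 2.32 ± 0.45 by a second probe, and 0.38 and not called on the starved arrays. Drosomycin (Drs) was at -1.59, 0.99, -1.54 and -1.52 in antennae, against 0.46, 1.14, 0.95 and 0.35 in brain, groups that overlapped through antennal array 2. Its call (-1.65 ± 0.57, adjusted p = 0.0286) was lost without antennal array 1, 3 or 4 or brain array 2 or 3 (0.0653 to 0.0755), and the difference was -2.28 without antennal array 2.

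Of 18 heat shock and chaperone genes 5 were higher, 2 lower and 11 did not pass, against 33.2%, 41.4% and 25.3% of all genes. Within 2-fold lay 14 of them, against 59.5% of all genes. The exceptions were Hsc70-2, at -0.45, -0.79, -0.55 and -0.50 in antennae and well above background on no brain array, and the small heat shock gene Hsp67Bc, at -2.75, -3.39, -3.05 and -3.44 in antennae against 1.84, 1.90, 2.09 and 1.95 in brain.

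**Figure D4:**
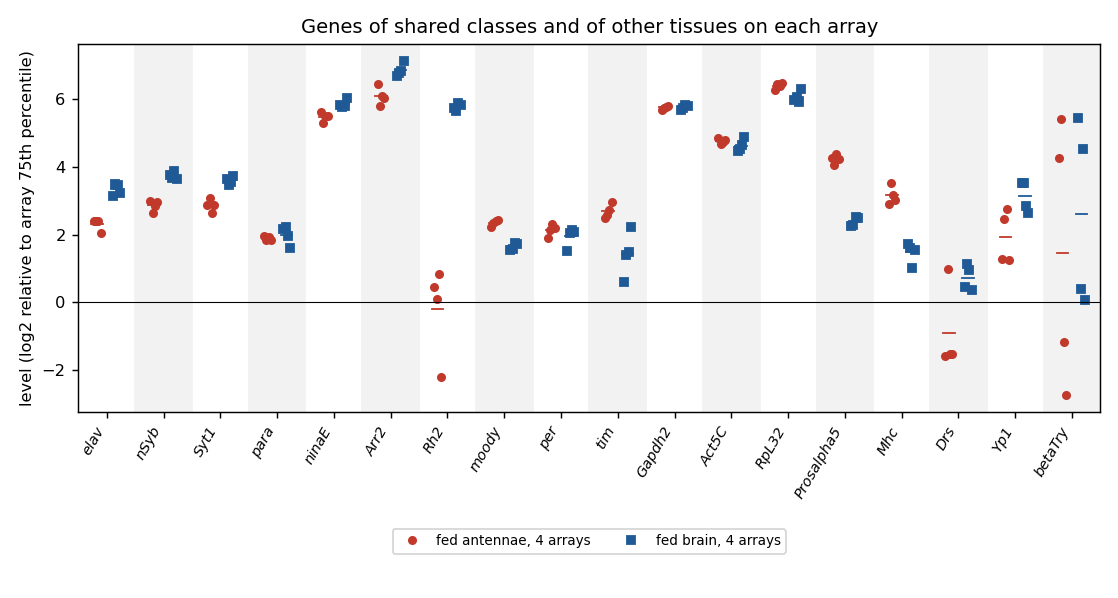
Level of 18 genes of shared classes and of other tissues on each array, as log2 relative to the array's 75th percentile, with fed antennae to the left (red circles) and fed brain to the right (blue squares) of each gene and short lines for means of 4 arrays. Neuronal, retinal and housekeeping genes lie close together, Rh2 separates the tissues, and betaTry is spread over several log2 units within both tissues.

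**Figure D5:**
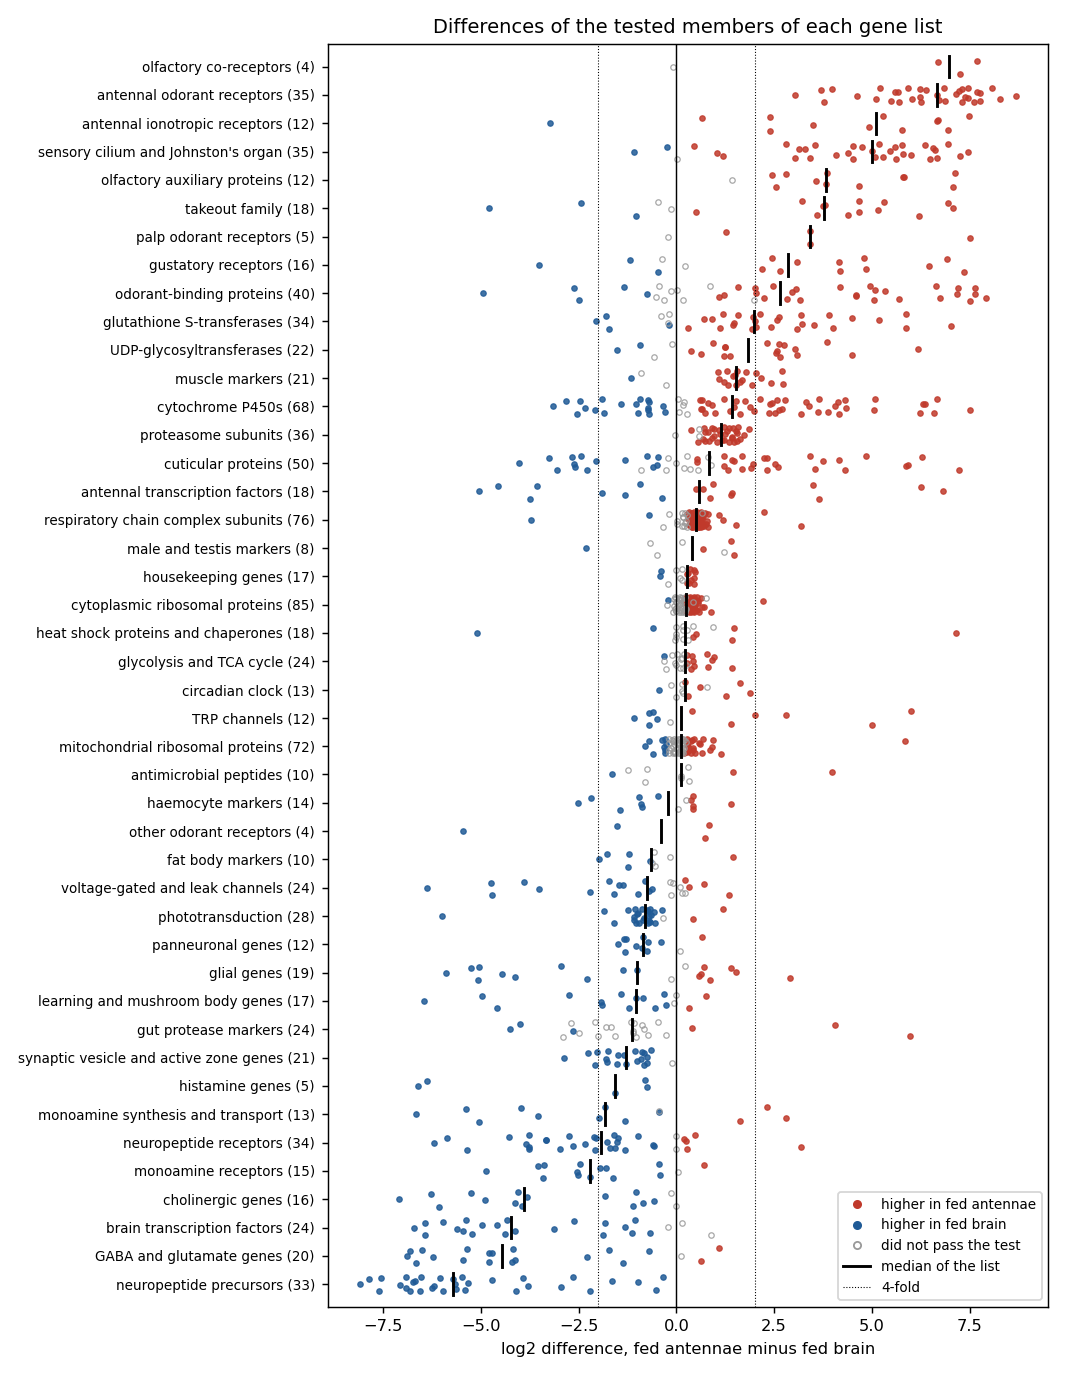
Log2 difference, fed antennae minus fed brain, of each tested member of 44 gene lists (number tested in brackets), with filled points where the test passed, red for higher in fed antennae and blue for higher in fed brain, open grey points where it did not, bars for the medians and dotted lines at 4-fold. Olfactory co-receptors and antennal odorant receptors (median 6.66) are at the top, neuropeptide precursors (-5.71) at the bottom, and housekeeping and ribosomal protein genes gather at 0.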

How the data were processed

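RNA of antennae and brain of fed female flies was measured on one-colour Agilent arrays, 4 per tissue. The intensity values were read from the scanner files as deposited: Feature Extraction 9.1 had subtracted the background from each spot, and the authors' files mark the spots well above it. The deposited table holds log2 values that the authors had made from the same signals, from which the 75th percentile of each array, control spots included, had been subtracted; here that table served as an alternative. Control spots and outlier spots were left out, spots of a probe were averaged, and log2 signals were set relative to the 75th percentile over 43603 spots. Of 32162 probes 20683 were matched to 13115 RefSeq genes; 22624 probes were tested, and unmatched ones kept the name of the array design. No spot was saturated.

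Tissues were compared with limma 3.58.1 (lmFit, eBayes; R 4.3.3, with the data.table package, version 1.17.8) with no block, and p-values were adjusted over all 22624 probes by the Benjamini-Hochberg method; every adjusted p in the text comes from this model. The remaining steps ran under Python 3.11.15, with matplotlib 3.10.9 for the plots, scipy 1.17.1 for the exact tests, and pandas 2.3.3 and numpy 2.4.6 for the rest. A bound on a fold used, on each array of the dim tissue, the higher of the lowest signal well above background and the probe's own. On simulated data with 22624 probes the fit recovered 18 of 67 probes changed by 0.5 log2 units, 52 of 67 changed by 1 and 60 of 66 changed by 2. Only these probes were changed there, whereas 74.7% of genes were called in the real comparison. The Benjamini-Hochberg cut-off depends on that share, so recovery in the real comparison was not measured. Precision is limited by how few arrays there are, and p-values measure the spread between pools of flies.

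The members and the gene lists were chosen with earlier results of these data known. Genes were named as the 12 largest differences in each direction, the 12 largest bounds, up to 4 members of each list in each direction, and the genes of the study's text; the others were chosen after their values were seen. Of 235 other probes of named genes 206 gave the same call and 6 the opposite one. Alternatives were the background correction, the scaling, the filter, the choice of probe, array weights, a replicate block, the starved arrays and leaving out each array.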

Additional observations from a re-analysis of the deposited data

Results flagged for a closer look

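In 19 of 366 groups of 4 arrays (183 genes, both tissues) 1 array lay far from the other 3, by Dixon's test of the gap to its nearest neighbour against the whole range at the 95% level. Chance flags about 1 group in 20, and 5.19% were found.

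Among olfactory and cilium genes, antennal array 3 was high in Ir92a (-1.14, the others at -1.44 to -1.41) and IFT52 (0.17, the others at -0.21 to -0.17), and antennal array 1 was low in Cpr64Ac (1.30). On the brain side array 1 was high in CG15169 (-4.44, the others at -5.30 to -5.21) and Gas8 (0.84), array 2 in CCDC151 (-7.05) and Ir84a (-7.07), and array 3 in Or43a (-6.55) and Dll (1.41), while it was low in Or71a (-3.91). CCDC151, Ir84a and Or43a were well above background on no brain array.

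Among the other genes, antennal array 2 was high in Drs (0.99, the others at -1.59 to -1.52) and low in sNPF (1.10) and Pu (1.71), and antennal array 4 was low in elav (2.05). Brain array 3 was high in sNPF (1.66) and Eaat2 (3.24), brain array 4 low in Dop2R (0.82), brain array 1 low in per (1.53) and brain array 2 low in Idh (4.42).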

How the results depend on the processing

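The counts of 5453 higher and 6794 lower genes stayed within 1.5 times in every alternative run. Those of at least 4-fold differences (1516 higher, 1683 lower) fell to 840 and 650 with the normexp background correction, to 939 and 743 with no background correction, and the lower ones to 853 with genes well above background on all 8 arrays. In these settings the higher genes outnumbered the lower ones, in the last by 1033 to 853. They also did so with quantile normalization, by 1625 to 1524. Leaving out 1 array gave 5129 to 5559 higher, 6406 to 7148 lower, 1474 to 1583 at least 4-fold higher and 1624 to 1866 at least 4-fold lower genes. The methods' t-test gave 5518 and 6781 genes at an unadjusted p under 0.05 and 5373 and 6578 after Benjamini-Hochberg. Scaling to housekeeping genes shifted all genes by -0.10 and gave 4825 higher and 7314 lower genes. Deviations of same-numbered arrays from their tissue means correlated at r of 0.1523, -0.0731, -0.1833 and 0.3242. Those of differently numbered arrays ranged from -0.3385 to 0.3752. With 4 arrays per tissue and no test, these values cannot show whether same-numbered extracts shared flies. With the replicate number as a block 5447 genes were higher and 6767 lower.

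Signs turned for the median of haemocyte markers without a filter (0.05); of palp receptors (-0.21) and TRP channels (-0.05) on genes above background on all 8 arrays; and of the other Or genes there (0.79), with normexp (0.09), with no background correction (0.03) and on the starved arrays (0.34). With quantile normalization they turned for cytoplasmic ribosomal proteins (-0.09), glycolysis (-0.09), housekeeping genes (-0.00), Act5C (-0.31) and RpL32 (-0.00). Gapdh2 turned with the array median (0.03) and array weights (0.01), Gas8 with probes averaged (1.87), Ir76b with probes averaged (3.48) and on the starved arrays (1.55), and para on the starved arrays (0.11). Without 1 array Ir76b lay between -0.49 and 0.19, Gapdh2 between -0.03 and 0.02, betaTry between -2.49 and 0.23, and the medians of antimicrobial peptides between -0.35 and 0.46 and of heat shock genes between -0.01 and 0.42. Of 176 named genes called, 11 lost the call in some setting and 3 of them (Drs, Yp1, RpL32) without 1 array. Apart from the sign changes that follow from fewer genes tested or another probe rule, the cause was not tested.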
